A study of Mus musculus with 24 samples.

Results

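The 10 genes described here belong to the amino acid stress response and were followed across B cell groups: Atf4, Ddit3, Trib3, Sesn2, Asns, Phgdh, Psat1, Shmt2, Slc3a2 and Slc7a5. For each gene, the probe set annotated to that gene alone with the highest mean over all 24 arrays was used, and the other probe sets served as a check. All 10 genes had such a probe set, with 23 probe sets between them, among 18193 genes on the array that did. All 10 also passed the filter on dim genes, which kept 11208 genes for testing. The rule that picked probe sets used no difference between groups, but the genes themselves were chosen with earlier results of these data known.

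Total RNA of sorted spleen B cells from female C57BL/6 mice was amplified and hybridised to Affymetrix mouse genome arrays, in 8 groups of 3 arrays. Follicular B cells (B220+ AA4.1- CD21int CD23+) and marginal zone B cells (B220+ AA4.1- CD21high CD23low) came from mice aged 8 to 10 weeks. A further group was follicular cells that had been sorted and then cultured for 6 h with antibodies to IgM (10 μg/ml) and to CD40 (2 μg/ml). No group of follicular cells cultured without antibodies was used here, so the antibodies and the culture cannot be told apart. The other 5 groups came from mice immunised at 8 to 10 weeks of age with an NP-coupled carrier in alum, and were sorted for binding of NIP, a hapten related to NP. Memory B cells (B220+ IgG1+ CD38+ PNA-) and germinal center B cells (B220+ IgG1+ CD38dull PNA+) were taken on day 7 and on day 40, and plasma cells (B220+ IgG1low CD138+ Igλ+) on day 7. The labels do not say whether the replicates came from separate mice or from pools, so p-values measure only the spread between these samples, which may be technical.

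The amino acid stress response is the branch of the integrated stress response that senses a shortage of amino acids. Uncharged transfer RNA activates the kinase Gcn2, which phosphorylates the translation factor eIF2; general translation falls, while the Atf4 messenger is translated more, so that Atf4 protein is set in large part after transcription. The Atf4 protein pairs with C/EBP family partners, binds C/EBP-ATF response elements and switches on genes for the synthesis, uptake and charging of amino acids. Stress in the endoplasmic reticulum feeds into the same pathway through the kinase Perk, and plasma cells are known for a large load of secreted antibody passing through that organelle.

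A promoter stretch is shown here because Asns, the gene with the widest range among the 10, was the one whose promoter held the letters of a C/EBP-ATF response element. RefSeq promoters (GRCm38.p6) were matched for 9 of the 10 genes, all except Slc7a5. The 250 bases before each start were searched on both strands for TGATGNAA, which 3.452% of 32851 promoters held. Among the 9 genes only Asns had a match, on the gene's strand and starting 23 bases before the start. The stretch below is chr6:7693210-7693292 (minus strand), printed 5′ to 3′ up to the last base before the start, with the match in capitals.
Asns: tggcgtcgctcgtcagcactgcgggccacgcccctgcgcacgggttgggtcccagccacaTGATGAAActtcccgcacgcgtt
The E-box CACGTG (6.021% of promoters) and the ER stress element (0.113% of promoters) had no match in the 9 promoters. A match is a run of letters and not a shown binding site, and no match says only that these letters are not in this window.

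Values are the GCRMA signals the authors deposited, on a log2 scale from 2.15, the lowest value of the files, to 16.43. Between 36.8% and 43.1% of the probe sets of an array lay at 2.15, array medians ran from 2.39 to 2.86, and arrays of 1 group correlated at 0.979 to 0.998. Several defining markers were highest in the groups they label. Fcer2a (CD23) averaged 12.97 in follicular and 8.67 in marginal zone cells, and Gcsam 12.11 and 12.28 in germinal center cells. Sdc1 (CD138) averaged 14.85 in plasma cells and Cd80 6.62 and 6.63 in memory cells. The separation was not complete, and Sdc1 was 10.04 in follicular and 9.83 in stimulated cells. Bcl6, a germinal center marker, averaged 13.62 in follicular against 13.94 and 14.13 in germinal center cells. Cd9, a marginal zone marker, averaged 11.56 in marginal zone and 10.94 in plasma cells. Nt5e, listed as a memory marker, was as bright in germinal center cells (10.66 and 12.04) as in memory cells (10.15 and 11.01). Irf4, listed as a plasma cell marker, averaged 14.26 in plasma and 15.02 in stimulated cells. The mean over 6 markers of stimulated B cells was 13.52 to 13.60 on stimulated and 13.48 to 13.92 on day 40 memory arrays. Of these, Myc and Egr2 were highest in stimulated cells, Nr4a1, Cd69 and Cd83 in day 40 memory cells and Ccnd2 in plasma cells. The mean over 10 myeloid marker genes was 8.02 to 9.03 on the plasma cell arrays and 2.68 to 2.97 on the follicular arrays. In plasma cells S100a9 averaged 14.20, S100a8 13.29, Lyz2 13.16, Mpo 10.80, Cd68 10.25, Cd14 9.19 and Csf1r 6.51. Csf3r (2.96), Adgre1 (2.32) and Itgam (2.16) were near the lowest value there. Replicate 1 of day 7 memory cells stood apart from the other two: the mean over 7 germinal center marker genes was 10.84 on that array and 6.11 and 6.64 on the others, against 11.90 to 12.01 in day 7 germinal center cells. Its myeloid mean was also the highest of its group, at 7.09 against 4.18 and 4.81. Day 40 memory arrays had germinal center means of 8.73, 9.06 and 7.17, against 5.09 to 5.35 on the follicular arrays. Their myeloid means were 4.295, 5.99 and 5.12, and those of day 40 germinal center arrays 6.67, 3.04 and 2.95. The part of these marker signals in the results below was not tested. In mixed cell populations, fewer cells of a type and less RNA per cell cannot be told apart.

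One limma model over all 24 arrays gave each difference as a log2 change with its standard error, and p-values were adjusted over the 11208 genes by the Benjamini-Hochberg method. A change was called, and is described as a rise or a fall, at an adjusted p under 0.05 and a log2 change of at least 1 in size. Across the 28 pairs of groups, the share of all genes called ran from 5.02% to 48.4%. The 10 genes differed widely in how far they moved. Asns had a range of group means of 8.12 log2 units, wider than in 96.4% of the genes tested, and was called in 23 of 28 pairs. Psat1 (3.01), Shmt2 (2.98), Sesn2 (2.94), Trib3 (2.78) and Slc7a5 (2.63) spanned more than the median gene, whose range was 2.13. Slc3a2 (1.89), Phgdh (1.59), Ddit3 (1.57) and Atf4 (1.25) spanned less.

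**Figure D1:**
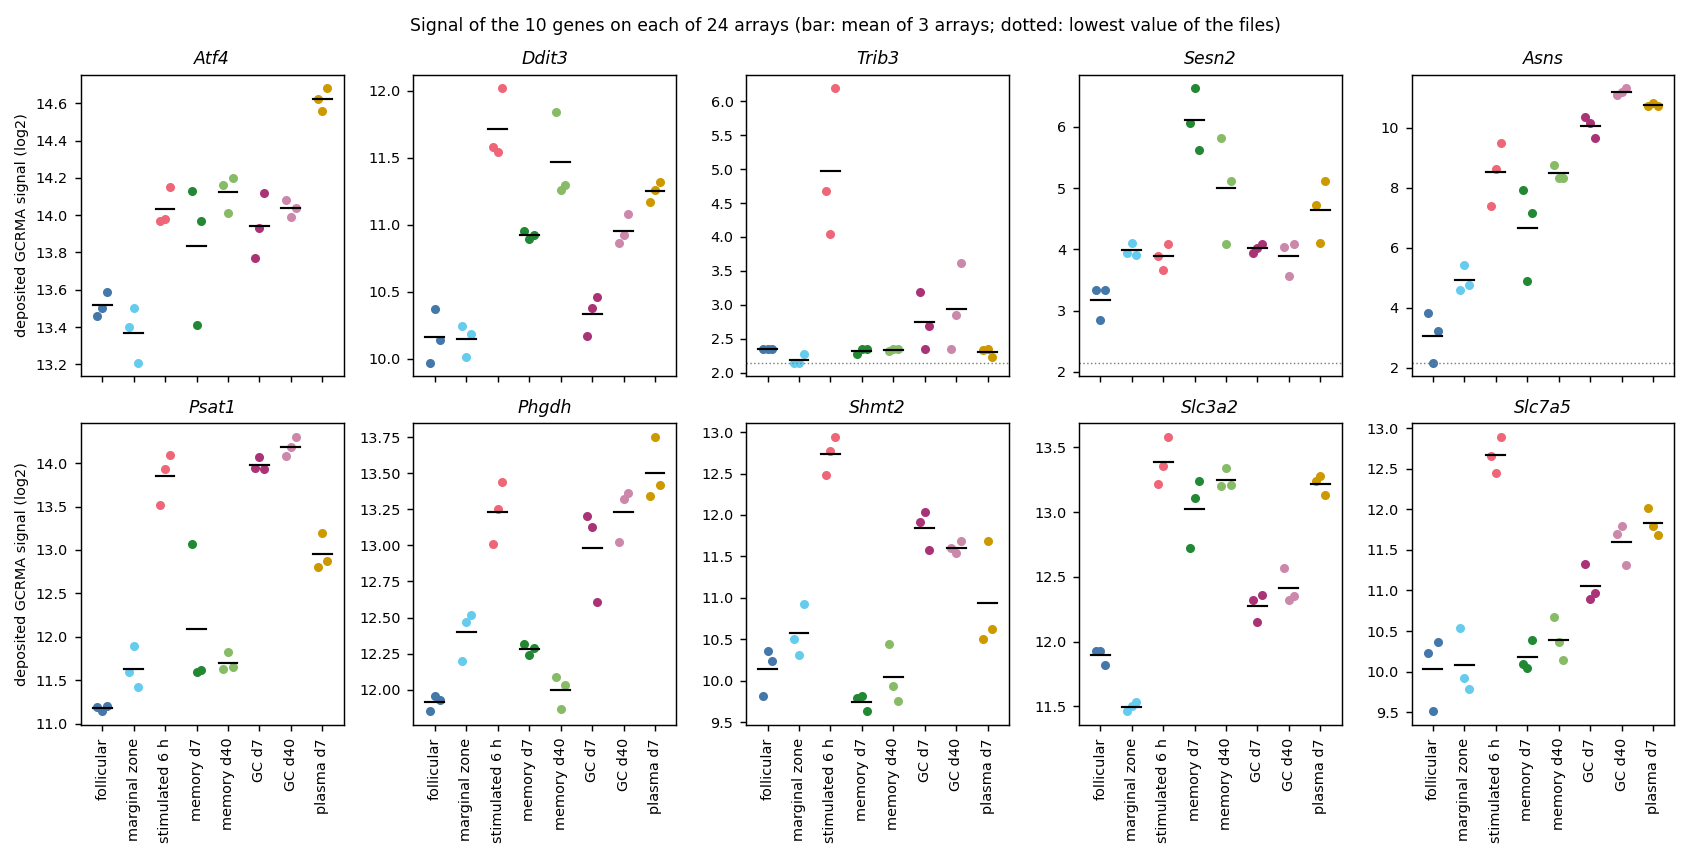
Deposited log2 signal of the 10 genes (vertical axis, with its own scale for each gene) on each of the 3 arrays of the 8 groups (points), with the group mean (bar); the dotted line is 2.15, the lowest value of the files. Atf4 is highest in plasma cells, Sesn2 in memory cells and Trib3 in stimulated follicular cells, while Asns climbs from 3.07 in follicular cells to 11.19 in day 40 germinal center cells.

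Atf4, the transcription factor at the head of the response, was brightest in plasma cells. Its log2 signal there was 14.62, 14.56 and 14.68, against 13.46, 13.50 and 13.59 in follicular cells and 13.40, 13.50 and 13.21 in marginal zone cells. Every plasma cell array lay above all arrays of the other 7 groups. Stimulated follicular cells read 13.97, 13.98 and 14.15, day 7 memory cells 14.13, 13.41 and 13.97, and day 40 memory cells 14.16, 14.01 and 14.20. Germinal center cells read 13.77, 13.93 and 14.12 on day 7 and 14.08, 13.99 and 14.04 on day 40. These 5 groups overlapped each other, and no neighbours in their order were told apart (adjusted p 0.629 or higher for the 4 steps from day 40 memory down to day 7 memory cells). Plasma cells stood 0.50 above the next group, day 40 memory cells (adjusted p = 0.00681), a difference too small to be called. Atf4 was called in 2 of 28 pairs, plasma cells against follicular cells (log2 change 1.10 ± 0.15, SE; adjusted p = 2.58e-06) and against marginal zone cells. The call against follicular cells ended when the 3 probe sets of the gene were averaged (0.73), one of which read 2.15 on all 24 arrays. The other bright probe set followed the one used, with a correlation of 0.968 over the 8 group means.

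Ddit3, which encodes the stress-induced factor Chop, was brightest in stimulated follicular cells and in day 40 memory cells. Stimulated cells read 11.58, 11.54 and 12.02 against 9.97, 10.37 and 10.14 in uncultured follicular cells, with no overlap (log2 change 1.55 ± 0.16; adjusted p = 1.04e-07). Day 40 memory cells read 11.84, 11.26 and 11.30 (1.31 ± 0.16 above follicular cells; adjusted p = 5.16e-06), and plasma cells 11.17, 11.26 and 11.32 (1.09 ± 0.16; adjusted p = 7.43e-06). Neighbours among these 3 groups were not told apart (adjusted p 0.188 or higher). Without follicular replicate 1 the plasma cell change was 0.995 and was no longer called. Day 7 memory cells (10.95, 10.89 and 10.92) and day 40 germinal center cells (10.86, 10.92 and 11.08) lay between, while day 7 germinal center cells (10.17, 10.38 and 10.46) and marginal zone cells (10.24, 10.01 and 10.18) overlapped the follicular arrays. The second probe set ranked plasma cells first, at a mean of 10.63 against 9.38 in stimulated cells, and correlated with the first at 0.785. The order of those 2 groups therefore depends on the probe set: plasma minus stimulated cells was -0.46 with the first and 0.40 with the mean of both.

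Trib3, a pseudokinase that Atf4 and Chop induce and that restrains them, was seen above background mainly in stimulated cells. Its signal there was 4.68, 4.05 and 6.19, while all 3 follicular arrays read 2.35, below the median of each array. The stimulated mean was at least 5.70-fold above the medians of the follicular arrays (fitted log2 change 2.62 ± 0.37; adjusted p = 6.94e-06). Germinal center cells gave 3.19, 2.35 and 2.69 on day 7 and 2.35, 2.85 and 3.61 on day 40, so that single arrays lay above the follicular value, and neither group was called against follicular cells. Memory cells (2.27 to 2.35 on 6 arrays), plasma cells (2.33, 2.35 and 2.23) and marginal zone cells (2.15, 2.15 and 2.27) stayed near the lowest value. Trib3 passed the filter on dim genes only through the groups in which it was brighter, so a difference between groups was bound to be present. The second probe set lay at 2.15 on 19 of 24 arrays and was also highest in stimulated cells.

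Sesn2, a leucine sensor that restrains mTORC1, the kinase complex that drives growth when amino acids are plentiful, showed another order: it was brightest in memory cells. Day 7 memory cells read 6.07, 6.63 and 5.62 and day 40 memory cells 5.81, 4.09 and 5.11, against 3.33, 2.84 and 3.33 in follicular cells. Sesn2 rose over follicular cells by 2.94 ± 0.34 on day 7 (adjusted p = 2.30e-06) and by 1.84 ± 0.34 on day 40 (adjusted p = 0.000503), with no overlap of arrays. With an offset of 16 before the logarithm the day 40 change was 0.98 and with only those groups in the fit its adjusted p was 0.0556, and both ended that call. Plasma cells read 4.73, 4.10 and 5.11 (1.48 ± 0.34 above follicular cells; adjusted p = 0.000876), a call that ended with that offset (0.73). Stimulated cells (3.89, 3.67 and 4.09), marginal zone cells (3.94, 4.10 and 3.91) and germinal center cells (3.94, 4.02 and 4.08 on day 7; 4.03, 3.56 and 4.09 on day 40) formed a narrow band, and no neighbours within it were told apart (adjusted p 0.886 or higher). Between day 7 and day 40 memory cells Sesn2 fell by 1.10 (adjusted p = 0.0450), but 1 day 40 array lay at 4.09 and without it the change was -0.65, not called. In all, the call ended in 16 of 24 leave-one-out fits and under 5 other settings. The second probe set was highest in day 7 memory cells too and correlated at 0.941. The mean over 20 dissociation and heat shock genes was 11.79 and 12.64 in day 7 and day 40 memory cells and 11.96 in plasma cells. It was 10.91 and 11.72 in day 7 and day 40 germinal center cells. Follicular, marginal zone and stimulated cells had means of 9.96, 9.57 and 9.28. The part of these genes in the Sesn2 and Ddit3 changes was not tested.

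Asns, which makes asparagine from aspartate and glutamine, was nearly silent in follicular cells and bright in germinal center and plasma cells. Follicular cells read 3.81, 2.17 and 3.23, with 1 of 3 arrays at or below its array's median, and marginal zone cells 4.60, 5.42 and 4.77. Day 40 germinal center cells read 11.08, 11.18 and 11.32, plasma cells 10.72, 10.83 and 10.74, and day 7 germinal center cells 10.37, 10.17 and 9.65. These 3 groups did not overlap any other group, and neighbours among them were not told apart (adjusted p 0.345 or higher). Stimulated cells read 7.39, 8.63 and 9.51, day 40 memory cells 8.77, 8.34 and 8.33, and day 7 memory cells 7.92, 4.90 and 7.15. Stimulated and day 40 memory cells had means of 8.51 and 8.48, and their arrays overlapped (difference 0.03; 95% confidence interval -1.21 to 1.27). Plasma cells lay 7.69 ± 0.59 above follicular cells (adjusted p = 1.72e-09) and stimulated cells 5.44 ± 0.59 (adjusted p = 2.59e-07). Memory cells lay 3.59 ± 0.59 above them on day 7 (adjusted p = 0.000123) and 5.41 ± 0.59 on day 40 (adjusted p = 1.58e-06). Because follicular values lie near the lowest value of the files, these sizes rest on a poorly measured base. The second probe set was also highest in day 40 germinal center and lowest in follicular cells, with a correlation of 0.995.

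Phgdh, Psat1 and Shmt2 act in the synthesis and use of serine. Phgdh takes the first step from the glycolytic intermediate phosphoglycerate, Psat1 the transamination that follows, and Shmt2 passes a carbon of serine to the folate pool in mitochondria. All 3 were high in stimulated and germinal center cells and low in follicular and memory cells. Psat1 read 11.19, 11.14 and 11.20 in follicular cells, 13.52, 13.93 and 14.09 in stimulated cells, 13.94, 14.07 and 13.93 in day 7 and 14.08, 14.18 and 14.30 in day 40 germinal center cells. The stimulated and germinal center groups lay above every array of the other 5 groups. Plasma cells read 12.80, 13.20 and 12.87, marginal zone cells 11.59, 11.89 and 11.42, and day 40 memory cells 11.63, 11.82 and 11.65. Day 7 memory cells split, with 13.07 on replicate 1 and 11.59 and 11.62 on the others; replicate 1 is the array with high germinal center markers.

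Phgdh moved less and put plasma cells first. It read 13.34, 13.75 and 13.42 in plasma cells, 13.01, 13.25 and 13.44 in stimulated cells, 13.20, 13.13 and 12.61 in day 7 and 13.02, 13.32 and 13.36 in day 40 germinal center cells. Neighbours among these 4 groups were not told apart (adjusted p 0.144 or higher). Follicular cells read 11.85, 11.96 and 11.93, marginal zone cells 12.20, 12.47 and 12.52, day 7 memory cells 12.32, 12.24 and 12.29, and day 40 memory cells 12.09, 11.87 and 12.03. The lower 4 groups lay below all arrays of the upper 4. The other 3 probe sets of Phgdh correlated at 0.979 to 0.994 with the one used, and all 4 are of the kind that can also bind related transcripts.

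Shmt2 was highest in stimulated cells, at 12.48, 12.77 and 12.94, above all arrays of the other groups. Day 7 germinal center cells read 11.91, 12.04 and 11.58 and day 40 germinal center cells 11.60, 11.54 and 11.68. Plasma cells read 10.50, 11.68 and 10.63, with replicate 2 at the level of germinal center cells. Marginal zone (10.50, 10.31 and 10.93), follicular (9.81, 10.36 and 10.24), day 40 memory (10.44, 9.94 and 9.76) and day 7 memory cells (9.79, 9.82 and 9.63) formed the lower end. No neighbours from plasma cells downward were told apart (adjusted p 0.254 or higher). The other 3 probe sets correlated with it at 0.958 to 0.997. The probe set used is of the kind that can also bind related transcripts. The probe set that correlated at 0.958 is not, and it put follicular cells lowest, at 7.78. It read 8.22 in day 7 memory, 8.41 in day 40 memory and 10.31 in plasma cells. The order at the lower end, and the distance of plasma from follicular cells, therefore depend on the probe set.

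Slc3a2 and Slc7a5 encode the heavy and the light chain of the large neutral amino acid transporter, which carries leucine and other bulky amino acids. Slc3a2 is the chaperone and anchor of several light chains, and Slc7a5 is the chain that carries the amino acid. Slc3a2 was high in stimulated cells (13.22, 13.36 and 13.58), day 40 memory cells (13.20, 13.34 and 13.21), plasma cells (13.24, 13.28 and 13.13) and day 7 memory cells (12.72, 13.11 and 13.24). It was lower in germinal center cells (12.32, 12.15 and 12.36 on day 7; 12.57, 12.32 and 12.35 on day 40), follicular cells (11.93, 11.93 and 11.82) and marginal zone cells (11.46, 11.50 and 11.53). The first 4 groups lay above every array of the last 4. Each had a single usable probe set, so neither gene could be checked against a second one.

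Slc7a5 put memory cells at the other end. It read 12.66, 12.45 and 12.89 in stimulated cells, 12.01, 11.80 and 11.68 in plasma cells, 11.69, 11.80 and 11.31 in day 40 and 11.32, 10.89 and 10.97 in day 7 germinal center cells. Memory cells read 10.09, 10.05 and 10.39 on day 7 and 10.67, 10.37 and 10.14 on day 40, overlapping follicular cells (10.23, 9.51 and 10.36) and marginal zone cells (10.54, 9.92 and 9.79). In memory cells of day 7, Slc3a2 rose over follicular cells by 1.13 (95% confidence interval 0.86 to 1.40; adjusted p = 1.83e-06), while the change of Slc7a5 was 0.14 (-0.35 to 0.63; adjusted p = 0.714). In memory cells of day 40, Slc3a2 rose by 1.36 (1.09 to 1.62; adjusted p = 2.24e-07), while Slc7a5 changed by 0.36 (-0.13 to 0.85; adjusted p = 0.309). The intervals of the 2 chains do not overlap on either day; the difference between the chains was not tested. In germinal center cells the chains differed the other way: Slc7a5 lay 1.21 above memory cells on day 40 and Slc3a2 0.84 below them.

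**Figure D2:**
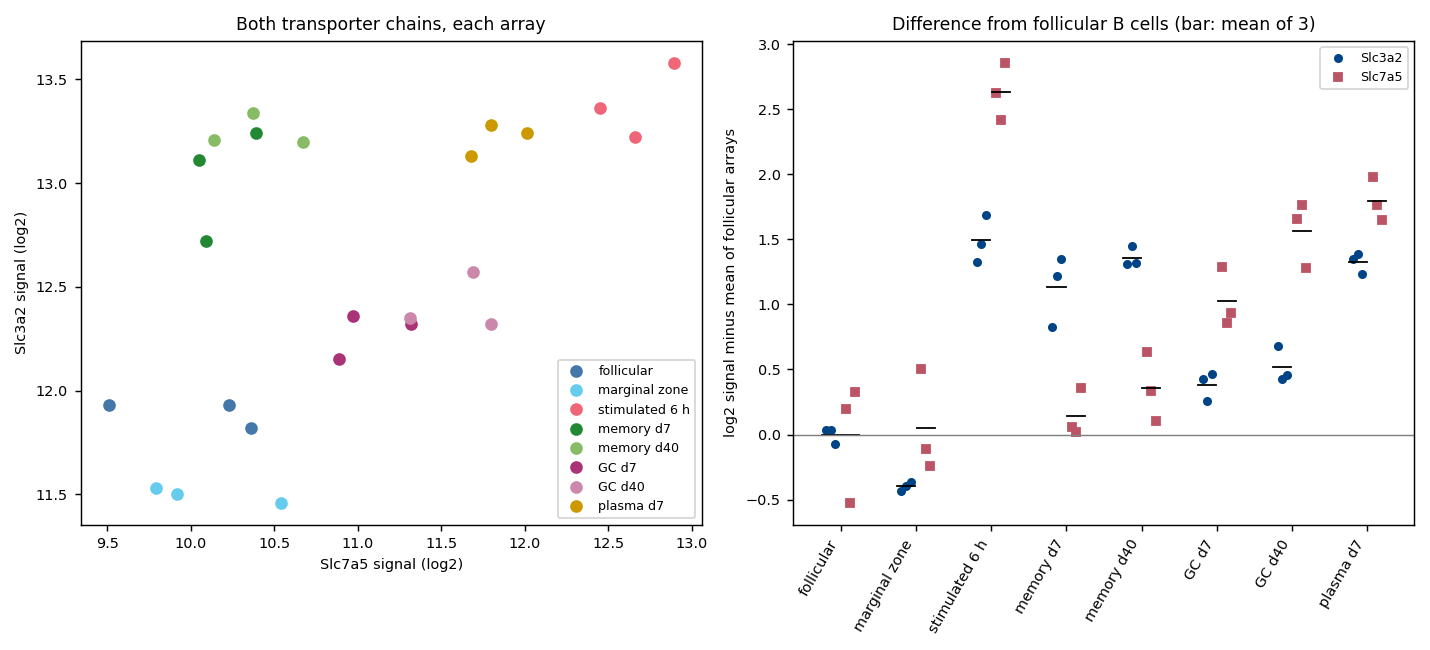
Left, deposited log2 signal of Slc3a2 (vertical) against Slc7a5 (horizontal) on each of the 24 arrays; right, each array's log2 signal minus the mean of the 3 follicular arrays, with the group mean as a bar. Memory arrays sit high for Slc3a2 (12.72 to 13.34) and low for Slc7a5 (10.05 to 10.67), and stimulated arrays are high for both.

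Follicular cells stimulated through the B cell receptor and CD40 had higher signals than uncultured ones for most of the 10 genes. In all 8 of 10 rose and none fell, among 11208 genes of which 39.3% were called, 16.9% higher and 22.4% lower. Among the 8 is Trib3, which passed the filter only through stimulated and germinal center arrays. A count without it, chosen after seeing the data, was 7 of 9 with a median change of 1.55. The median fitted change of all 10 was 2.07, against -0.02 over all genes tested. Asns rose by 5.44, and rises above 2 were also seen for Psat1 (2.67 ± 0.27; adjusted p = 1.05e-07), Slc7a5 (2.63 ± 0.23; adjusted p = 1.64e-08) and Shmt2 (2.59 ± 0.26; adjusted p = 8.92e-08), while for Trib3 only the bound of 5.70-fold can be given. Slc3a2 rose by 1.49 ± 0.13 (adjusted p = 9.98e-09) and Phgdh by 1.32 ± 0.16 (adjusted p = 9.87e-07). Atf4 changed by 0.52 ± 0.15 (adjusted p = 0.00555) and Sesn2 by 0.72 ± 0.34 (adjusted p = 0.0792), and neither was called. Leaving out any single array left 8 genes called.

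Gene lists around the pathway moved unevenly with stimulation. Of 14 tested enzymes of serine and one-carbon metabolism beyond the 10 genes, 8 rose and none fell (median 1.41). Mthfd2, the mitochondrial folate enzyme downstream of Shmt2, rose by 3.24 ± 0.20 and Shmt1, the cytosolic counterpart of Shmt2, by 3.13 ± 0.24. Of 18 cytosolic aminoacyl-tRNA synthetases, which charge transfer RNA with amino acids, 11 rose and none fell (median 1.34), led by Yars (1.94 ± 0.30) and Tars (1.77 ± 0.15). Of 17 further targets of the integrated stress response 6 rose and none fell (median 0.59), including Jdp2 (4.17 ± 0.40) and the alanine transaminase Gpt2 (3.31 ± 0.34). Amino acid transporters split, with 5 of 16 higher and 5 lower: Slc1a4 rose by 4.34 ± 0.37 and Slc43a2, another carrier of large neutral amino acids, fell by 5.32 (SE 0.30). Chaperones of the endoplasmic reticulum and other genes of the unfolded protein response did not rise. Of 20 such genes, 18 were not called and 2 fell, Xbp1 by 1.41 and Herpud1 by 1.07. Among genes of mTORC1 and amino acid sensing, Rragd (4.95 ± 0.47) and Deptor (3.72 ± 1.16) rose, while the sestrins Sesn1 and Sesn3 fell, by 2.54 and 3.23. Of 19 genes of mTORC1 and amino acid sensing 2 rose and 4 fell in all, and of 14 eIF2 kinases and regulators 3 rose and 2 fell, shares not above those of all genes called in either direction; among them were Eif2b3 (3.32 ± 0.19) and the kinase gene Eif2ak3 (-1.22 ± 0.21). Myc, which drives growth of activated B cells, rose by 3.58 ± 0.63 (adjusted p = 8.16e-05). Its rise was not particular to stimulated cells, since day 7 and day 40 memory cells also lay above follicular cells (2.38 and 3.07). Germinal center minus memory cells was -3.23 for Myc on day 7 and -2.87 on day 40, both called.

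Plasma cells also had higher signals than follicular cells for most of the genes. Of the 10, 8 rose and none fell, beside 42.7% of all genes called, 20.3% higher and 22.4% lower, and the median change was 1.40 against -0.05 over all genes. Asns (7.69), Slc7a5 (1.80 ± 0.23; adjusted p = 1.92e-06), Psat1 (1.78 ± 0.27; adjusted p = 1.38e-05), Phgdh (1.59 ± 0.16; adjusted p = 6.67e-08), Sesn2 (1.48), Slc3a2 (1.32 ± 0.13; adjusted p = 3.81e-08), Atf4 (1.10) and Ddit3 (1.09) rose. Trib3 changed by -0.05 (95% confidence interval -0.83 to 0.73) and Shmt2 by 0.80 ± 0.26 (adjusted p = 0.0121), and neither was called. The Shmt2 change was called with the mean of its probe sets (1.23; adjusted p = 0.000283) and without plasma cell replicate 1 (1.02), and was 0.43 without plasma cell replicate 2. Both comparisons share the follicular arrays. The myeloid marker mean of 8.02 to 9.03 on the plasma cell arrays goes with these changes, and its part in them was not tested.

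The lists around the pathway had another balance in plasma cells. Of the 17 further stress targets 12 rose and none fell (median 1.77). Chac1, which breaks down glutathione, averaged 10.61 in plasma cells and 2.20 in follicular cells, where it was at or below the array median on all 3 arrays. Atf3 rose by 7.72 ± 0.72 and Jdp2 by 5.13 ± 0.40. Chaperones and other genes of the unfolded protein response rose in 18 of 20 cases and fell in none (median 2.47), led by Pdia4 (7.14 ± 1.03), Sdf2l1 (6.11 ± 0.62), the stress sensor Ern1 (5.87 ± 0.57) and Edem1 (5.14 ± 0.21). Xbp1, the factor that drives the secretory apparatus, rose by 3.71 ± 0.20 and the chaperone Hspa5 by 1.33 ± 0.10. Of 18 synthetases 7 rose and none fell (median 0.72), among them Yars (2.91 ± 0.30) and Nars (1.75 ± 0.17). Serine and one-carbon enzymes split into 4 higher and 3 lower of 14, near the 20.3% and 22.4% of all genes called higher and lower. Psph, the last enzyme of serine synthesis, was up by 2.29 ± 0.19 and Mthfd1l down by 2.33 (SE 0.30). Of 16 transporters 7 rose and 3 fell, with Slc7a7 up by 5.06 ± 0.30. Of the mTORC1 and sensing genes 4 of 19 fell and none rose, a share called lower close to the 22.4% of all genes; Sesn3 changed most (-6.09 ± 0.30). Among the eIF2 kinases and regulators 2 of 14 rose and 1 fell, shares below those of all genes. The 1 that fell was Eif2ak4, which encodes Gcn2, by 1.94 (SE 0.15). Of 20 dissociation and heat shock genes 9 rose and 1 fell, with Hspa1b up by 8.45 ± 0.84. Myc fell by 1.94 (SE 0.63; adjusted p = 0.0119).

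Set directly against stimulated cells, plasma cells had more Asns (2.25 ± 0.59; adjusted p = 0.00258), less Trib3 (at least 5.35-fold; adjusted p = 3.98e-06) and less Shmt2 (-1.79 ± 0.26; adjusted p = 6.67e-06). These were the 3 of 10 genes called, beside 48.4% of all genes. Among the 3 is Trib3, which passed the filter only through stimulated and germinal center arrays, so a difference for it was bound to be present. Psat1 (-0.89; adjusted p = 0.00746), Slc7a5 (-0.84; adjusted p = 0.00396) and Atf4 (0.59; adjusted p = 0.00171) differed by less than the size required. Leaving out plasma cell replicate 2 raised the count to 5.

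Against day 7 germinal center cells, 1 of 10 genes was called in plasma cells, beside 38.2% of all genes: Psat1 was lower by 1.02 (SE 0.27; adjusted p = 0.00336). That call ended when arrays were shifted to the same median (-0.87) and without day 7 germinal center replicate 2, plasma cell replicate 1 or plasma cell replicate 3 (-0.945 to -0.98), while 2 genes were called without day 7 germinal center replicate 3 or plasma cell replicate 2. Slc3a2 (0.94 ± 0.13), Ddit3 (0.91 ± 0.16), Slc7a5 (0.77 ± 0.23), Atf4 (0.68 ± 0.15) and Phgdh (0.52 ± 0.16) were higher in plasma cells, and Shmt2 lower (-0.91 ± 0.26), each with an adjusted p of 0.00886 or less but below the size required. With arrays shifted to the same median Ddit3 (1.07) and Slc3a2 (1.09) were called, and with the mean of probe sets Ddit3 was (1.28). Of 14 further serine and one-carbon enzymes 7 fell and 2 rose in plasma cells, beside 20.1% of all genes called lower and 18.1% higher. Mthfd1l was lower by 3.65 (SE 0.30) and Mthfd1 by 2.40 (SE 0.35). Against day 7 memory cells, 5 of 10 were called beside 36.6% of all genes. Asns (4.11 ± 0.59), Slc7a5 (1.65 ± 0.23), Phgdh (1.22 ± 0.16) and Shmt2 (1.19 ± 0.26) rose and Sesn2 fell (by 1.46; SE 0.34). Without replicate 1 of day 7 memory cells Psat1 was called too (1.35, against 0.86). Without plasma cell replicate 2 the Shmt2 change was 0.82 and was not called.

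**Figure D3:**
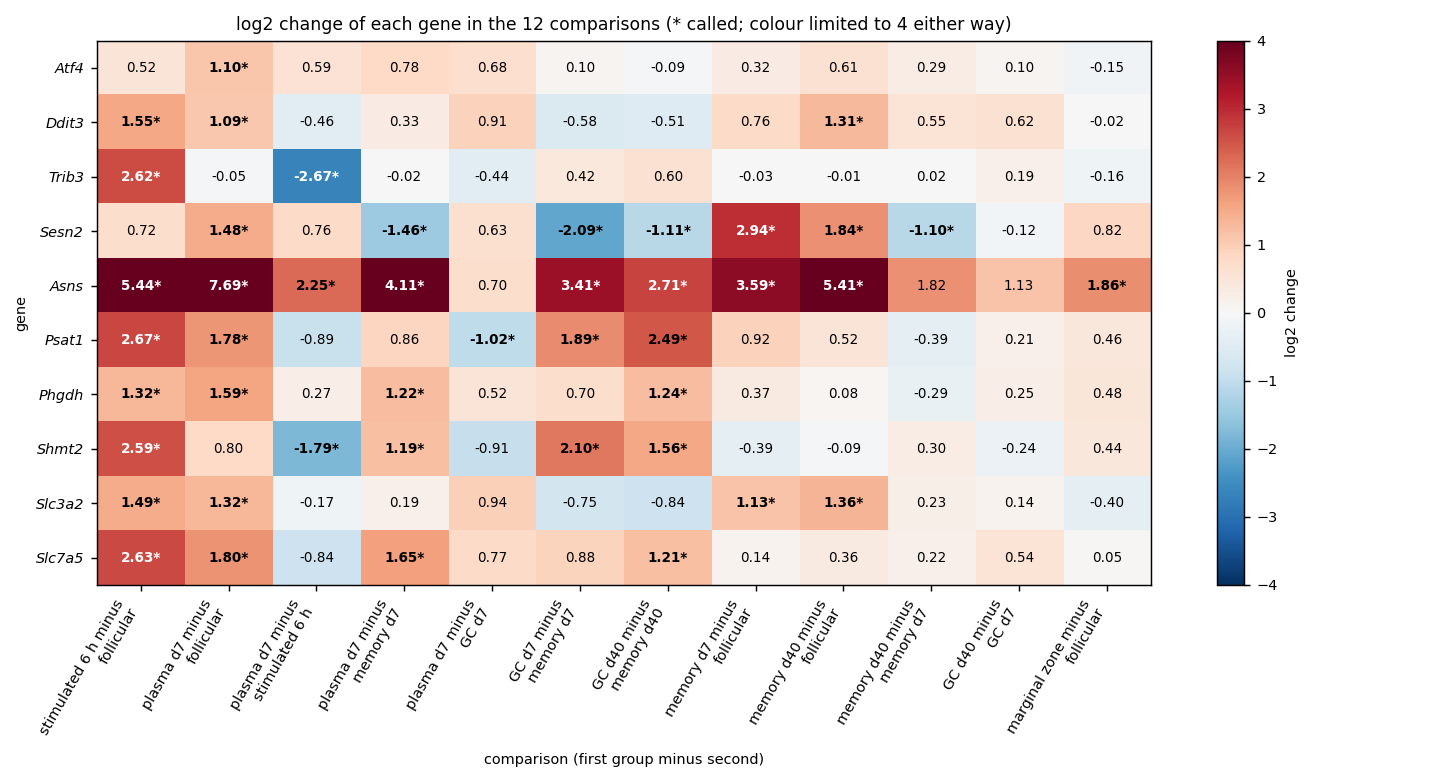
Log2 change of the 10 genes (rows) in the 12 comparisons (columns, first group minus second), from the model over all 24 arrays; an asterisk marks a called change, and colours are limited to 4 in either direction. Trib3 lay at background in follicular cells, so its values there are fitted and give no measured fold. Stimulated and plasma cells each have 8 called changes against follicular cells, and the column of day 40 against day 7 germinal center cells has none.

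Germinal center and memory cells, which come from the same immune response, differed in Asns, Psat1, Shmt2 and Sesn2 on both days. On day 7, 3 of 10 rose and 1 fell in germinal center cells, beside 23.7% of all genes called. Asns rose by 3.41 ± 0.59 (adjusted p = 0.000147), Shmt2 by 2.10 ± 0.26 (adjusted p = 4.49e-06) and Psat1 by 1.89 ± 0.27 (adjusted p = 2.25e-05), and Sesn2 fell by 2.09 (SE 0.34; adjusted p = 7.17e-05). Without replicate 1 of day 7 memory cells, the array with high germinal center markers, Asns differed by 4.04 and Psat1 by 2.38. On day 40, 5 of 10 rose and 1 fell, beside 27.9% of all genes called. Asns rose by 2.71 ± 0.59 (adjusted p = 0.000919), Psat1 by 2.49 ± 0.27 (adjusted p = 5.83e-07), Shmt2 by 1.56 ± 0.26 (adjusted p = 6.94e-05), Phgdh by 1.24 ± 0.16 (adjusted p = 4.06e-06) and Slc7a5 by 1.21 ± 0.23 (adjusted p = 0.000296). Sesn2 fell by 1.11 (SE 0.34; adjusted p = 0.0111), with overlapping arrays, and the call ended without day 40 memory replicate 1 (-0.71), without day 40 germinal center replicate 2 (-0.94), with quantile normalization (-0.95), with the offset of 16 (-0.67) and with only those groups in the fit (adjusted p = 0.118).

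Slc3a2 and Ddit3 had lower signals in germinal center than in memory cells, but were not called. Slc3a2 was lower in germinal center cells by 0.75 on day 7 (adjusted p = 0.000121) and by 0.84 on day 40 (adjusted p = 2.61e-05), and Ddit3 by 0.58 (adjusted p = 0.00597) and 0.51 (adjusted p = 0.0116), all under the size required. Atf4 itself differed little, by 0.10 on day 7 (95% confidence interval -0.20 to 0.41) and -0.09 on day 40 (-0.39 to 0.22). A test of whether the difference between germinal center and memory cells changed between the days called none of the 10 genes by limma, beside 4.94% of all genes, and 1 of 10 had an unadjusted p under 0.05 (Phgdh, 0.54; adjusted p = 0.189).

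Of the further serine and one-carbon enzymes, 5 of 14 rose in germinal center cells on day 7 and 7 rose and 1 fell on day 40 (medians 0.74 and 1.03). Mthfd2 rose by 1.73 ± 0.20 and 2.41 ± 0.20. Thymidylate synthase, Tyms, averaged 5.10 in day 40 germinal center cells and 2.15 in memory cells of that day. Of 18 synthetases 4 rose on each day and none fell. Over all genes tested, 11.6% were called higher and 12.1% lower on day 7, and 15.3% higher and 12.6% lower on day 40. The further stress targets went both ways on day 40, with 5 higher and 4 lower of 17: Ndrg1 rose by 3.88 ± 0.50 while Atf3 fell by 5.62 (SE 0.72) and Cebpb by 3.65 (SE 0.45). Of 20 dissociation and heat shock genes 7 were lower in germinal center cells on each day and 1 was higher.

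Memory cells differed from follicular cells in fewer of the 10 genes than stimulated or plasma cells did, though at shares above those of all genes. On day 7, Asns, Slc3a2 and Sesn2 rose and none fell, 3 of 10 beside 18.4% of all genes called and 9.18% called higher. On day 40, Asns, Slc3a2, Sesn2 and Ddit3 rose, 4 of 10 beside 13.8% called and 7.23% called higher. Ddit3 was also higher on day 7, by 0.76 (adjusted p = 0.00102), which was called with the mean of its probe sets (1.01; adjusted p = 0.0156), and its difference between the days was not called (0.55; adjusted p = 0.0331). Both median changes of the 10 genes were 0.57. Psat1 changed by 0.92 on day 7 (adjusted p = 0.0138) and by 0.52 on day 40 (adjusted p = 0.188), Phgdh by 0.37 and 0.08, and Shmt2 by -0.39 and -0.09. Without replicate 1 of day 7 the Psat1 change on that day was 0.43 and the Asns rise 2.96, while Psat1 was called without replicate 2 (1.17) or replicate 3 (1.15). None of 18 synthetases was called by limma on day 40 (median -0.03), and 1 had an unadjusted p under 0.05. Of 17 further stress targets 5 rose and 1 fell on day 40, with Atf3 up by 7.26 ± 0.72, Jdp2 by 6.33 ± 0.40 and Cebpb by 4.06 ± 0.45. Of 20 dissociation and heat shock genes 14 rose and none fell on day 40 (median 1.52) and 8 rose on day 7 (median 0.64), with Hspa1b up by 9.66 ± 0.84 and 7.71 ± 0.84; their part in the changes of the 10 genes was not tested.

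**Figure D4:**
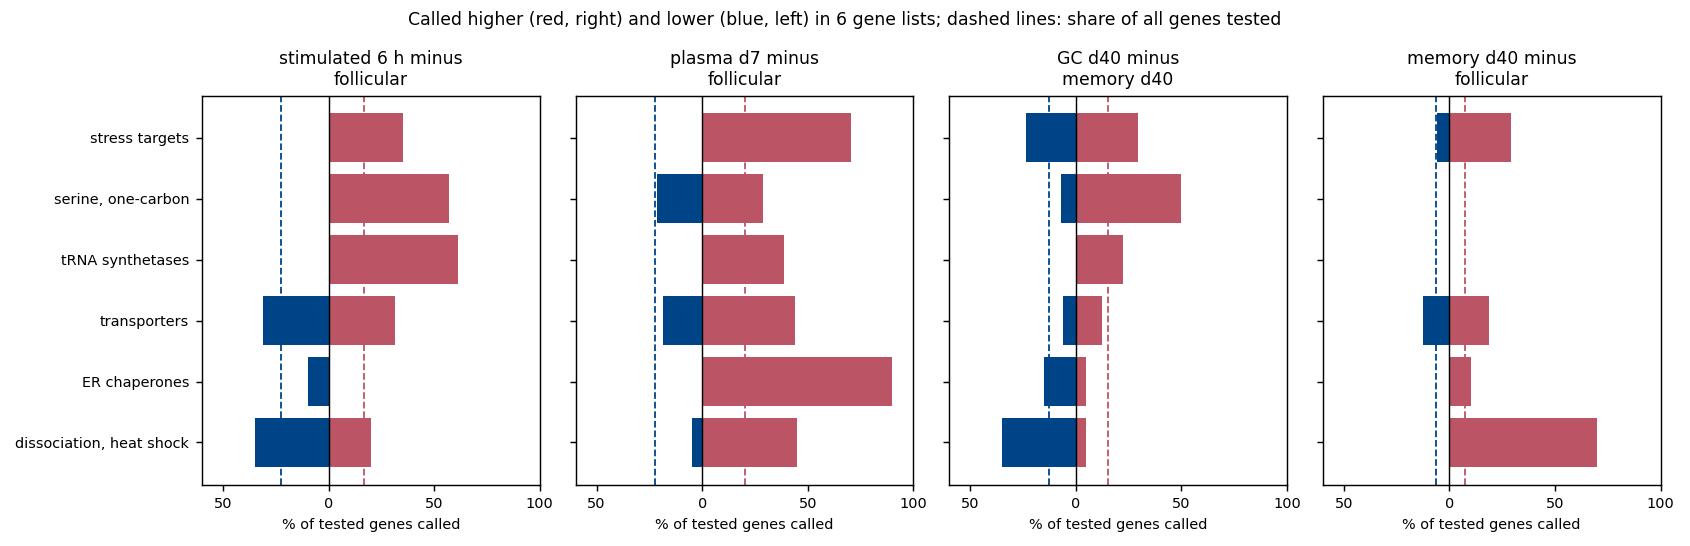
Share of the tested genes of 6 lists called higher (red, to the right) and lower (blue, to the left) in 4 comparisons; dashed lines give the shares over all genes tested. Synthetases and serine enzymes stand out on stimulation (11 of 18 and 8 of 14 higher). The chaperone list, which also holds other genes of the unfolded protein response, stands out in plasma cells (18 of 20 higher). Dissociation and heat shock genes stand out in day 40 memory cells (14 of 20 higher).

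The remaining comparisons called few of the 10 genes. Marginal zone cells had more Asns than follicular cells (1.86 ± 0.59; adjusted p = 0.0359), the 1 gene of 10 called beside 11% of all genes (7.21% called higher), with no overlap of arrays. That call ended without the filter on dim genes (adjusted p = 0.0726), with an offset of 16 (0.56), with only those groups in the fit (adjusted p = 0.0619) and in 5 of 24 leave-one-out fits. Slc3a2 (-0.40; adjusted p = 0.0372) and Phgdh (0.48; adjusted p = 0.0428) differed by less than the size required. Between days, Sesn2 was the 1 gene of 10 called in memory cells, beside 5.02% of all genes. Asns differed by 1.82 between memory days (adjusted p = 0.0583), by 2.46 (adjusted p = 0.0129) without replicate 1 of day 7 and by 0.945 (adjusted p = 0.279) without replicate 2. It was also called with the 75th percentile filter (adjusted p = 0.0478), quantile normalization (adjusted p = 0.0406) and the mean of probe sets (adjusted p = 0.0498). In germinal center cells none of the 10 was called between days by limma, beside 5.94% of all genes, and 2 had an unadjusted p under 0.05: Ddit3 was higher on day 40 by 0.62 (adjusted p = 0.0165) and Slc7a5 by 0.54 (adjusted p = 0.195). The largest difference was that of Asns, higher on day 40 by 1.13 with no overlap of arrays. It was called by limma only with those groups alone in the fit (adjusted p = 0.0491).

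Over the 8 group means, the genes did not follow a single order. Of the 45 pairs of the 10 genes, Ddit3 and Slc3a2 were most alike (Pearson r = 0.935), followed by Phgdh and Slc7a5 (0.878), Shmt2 and Slc7a5 (0.862) and Psat1 and Phgdh (0.858). Atf4 correlated at 0.815 with Asns, 0.785 with Slc3a2 and 0.720 with Ddit3, and at 0.153 with Trib3. Sesn2 stood apart, with r from -0.467 (Shmt2) to 0.547 (Slc3a2). Among 8916 other tested genes with a range of group means of at least 1, the genes most like Psat1 were Mthfd2 (0.989), Med9 (0.987) and Strap (0.983). Those most like Shmt2 were Timm50 (0.985), which imports proteins into mitochondria, the translation factor subunit Eif3b (0.982) and Prpf3 (0.976). Those most like Asns were Cenpv (0.968), Adk (0.962) and Zfp207 (0.960), and those most like Atf4 were Morf4l2 (0.964), Cdc73 (0.950) and N4bp1 (0.948). All of these are correlations over 8 points that share arrays and scaling, and describe likeness of pattern.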

How the data were processed

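Signals of 45101 probe sets on 24 arrays were used as log2 values the authors deposited; GCRMA is named in the submitters' processing notes, and its version and settings are not given in the sources used here. Probe sets were named through the platform annotation: 34958 had 1 gene symbol, and 932 with several were left out with the 64 controls. Each gene was taken from its probe set with the highest mean, and genes above the array's median on at least 3 arrays were tested. limma 3.58.1 (R 4.3.3) was run on the 24 arrays with a mean per group and no covariate and was tested on simulated data. The 10 genes and the 8 lists of pathway genes (151 genes, 142 with a probe set, 138 tested) were chosen with earlier results of these data known. All 10 genes are named throughout; from each list up to 4 genes with the largest called change in a comparison could be named, besides Myc, Xbp1, Hspa5 and the defining markers. The genes most like a gene are the 3 with the highest correlation. Precision is limited by 3 arrays a group. Alternatives were other filters, quantile normalization, a shift that gives every array 1 median, an offset of 16, averaged probe sets of each gene, the replicate number as a block, a fit on the compared groups only, and leaving out each array.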

Additional observations from a re-analysis of the deposited data

How the results depend on the processing

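Of 120 changes (10 genes in 12 comparisons), 44 were called. Of these, 35 were called under every alternative in which the gene was tested, and no called change turned its sign. The filter at the 75th percentile left Trib3 and Sesn2 untested, so none of their calls was checked under it. With the replicate number as a block, all 120 kept their side of the threshold and their direction (Atf4 in plasma against follicular cells, 1.10); the numbers were not shown to pair the arrays, since 39 of 84 same-numbered pairs deviated together with a correlation above 0.1 (range -0.496 to 0.445; median 0.0837, against -0.0257 for unequal numbers).

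Counts of the 10 genes moved as follows. For plasma against day 7 germinal center cells the count was 2 with arrays shifted to the same median and 2 with the mean of probe sets, against 1, and 0 to 2 over the leave-one-out fits. For plasma against stimulated cells the leave-one-out range was 3 to 5. For marginal zone against follicular cells it was 0 with no filter, with the offset of 16 and with the compared groups only, and 0 to 1 on leaving out an array. For day 40 against day 7 memory cells it was 0 under the same settings and 0 to 2 on leaving out an array. For day 40 against day 7 germinal center cells it was 1 (Asns) with the compared groups only. Counts over all genes moved for marginal zone cells (805 at the 75th percentile filter, against 1237), for the memory days (366 at that filter and 199 with the compared groups only, against 563) and for the germinal center days (429 and 425, against 666).

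Some changes that were not called turned their sign, and the cause was not tested. With shifted arrays Trib3 in plasma cells was 0.13 against follicular and 0.16 against memory cells. With the mean of probe sets Ddit3 was 0.40 (plasma against stimulated) and 0.022 (marginal zone against follicular), Shmt2 0.18 (day 40 memory against follicular) and Atf4 -0.02 (germinal center days). With quantile normalization Trib3 was 0.020 and 0.028 in day 7 and day 40 memory against follicular cells. Over the leave-one-out fits, ranges that crossed 0 were, for Trib3, -0.047 to 0.017 (plasma against day 7 memory), -0.010 to 0.030 (memory days) and -0.14 to 0.49 (germinal center days). They were -0.11 to 0.25 for Atf4 (day 7 germinal center against memory), -0.12 to 0.31 (day 7 memory) and -0.21 to 0.21 (marginal zone) for Slc7a5 against follicular cells, and -0.29 to 0.053 for Shmt2 (day 40 memory against follicular). They were -0.11 to 0.088 for Ddit3 (marginal zone against follicular), -0.645 to 0.095 for Psat1 (memory days) and -0.22 to 0.047 for Sesn2 (germinal center days).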
